A study of Mus musculus with 9 samples.

Results

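The heavy chain variable genes (Ighv) are the rows of the count files whose symbol starts with Ighv: 185 rows of 55385 genes, which carry 183 symbols because Ighv5-8 and Ighv1-13 each have a pair of rows. They were chosen by symbol alone, not by any measured value. All 183 symbols were found in the RefSeq table of assembly GRCm38.p6, on chromosome 12 between 113572929 and 116009954, a span of 2437 kb, and that table lists 120 as V segments and 63 as V segment pseudogenes. By number they fall into 16 families, with 92 genes in Ighv1, 21 in Ighv5 and 16 in Ighv8.

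The heavy chain of an antibody is built in the developing B cell by joining 1 Ighv gene to a D and a J segment, so a mature B cell uses a single Ighv gene on its productive allele. A B cell that divides passes the joined gene to its daughters. Class switching later replaces the IgM constant gene with an IgG, IgA or IgE one and leaves the variable gene in place. Plasma cells, the antibody-secreting end stage, carry heavy chain mRNA in large amounts, and those that descend from the same B cell share its variable gene.

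Transcripts and antibody tags were read together in single splenocytes (CITE-seq). The mice carried no, 1 or 2 copies of R594C, an amino acid change in IRE1: wild type (WT), R594C/+ and R594C/R594C. IRE1, encoded by Ern1, is the sensor of endoplasmic reticulum stress that splices Xbp1. The study asked whether this change affects the immune cells of the spleen. Total splenocytes, sorted with the dye DAPI, carried hashtags, antibody-bound barcodes that mark a replicate: WT 1 to 4, R594C/+ 1 to 4, and R594C/R594C 1 and 2. Animals are not named in the labels, only replicates, so each p-value measures the spread between hashtag replicates. Each genotype was 1 droplet capture, so genotype, capture and staining cannot be told apart. Age, sex and strain are not given in the labels used here. Xist, expressed from the inactive X chromosome, stood at 1539 to 1687 CPM (UMIs scaled to a common library total) in B cells of WT 2, all 4 R594C/+ replicates and R594C/R594C 2, and at 5.65 to 22.5 CPM in the other 4. Xist thus differed within WT and within R594C/R594C, so the replicates of each of these genotypes did not all come from a single animal. The comparison of R594C/+ with WT thus nearly coincides with that split.

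After filtering, a replicate held 2945 to 7280 single cells. Plasma cells were the cells with at least 5 Xbp1 and 20 Jchain UMIs (molecular tags that mark original transcripts; Jchain encodes the chain that joins IgM and IgA): 817 cells, 44 to 122 per replicate, with a median of 18971 UMIs. Of these, 798 lay in clusters whose genes matched plasma cells, 54 of them in a cycling one. Most plasma cell genes that the gate did not use were higher in gated cells than in B cells. Sdc1 (the surface marker CD138) stood at 114.1 to 167.5 CPM in gated cells against 4.43 to 9.12 CPM in B cells, and Tnfrsf17 (the survival receptor BCMA) at 88.8 to 149.2 against 0.0859 to 1.35 CPM. Irf4, a factor of the plasma cell program, did not stand higher (113.6 to 202.4 in gated cells against 176.0 to 251.1 CPM in B cells). Cd3e, a T cell gene, was at 0 to 7.20 CPM in the gated cells. B cells outside the gate numbered 22712. The 13185 T-like cells, which make no heavy chain, gave the level of heavy chain RNA from other cells. Free RNA and doublets that were missed cannot be told apart in that level.

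The libraries tag the 3′ end of transcripts, far from the variable region, so few Ighv UMIs were read for each heavy chain transcript. In plasma cells 12942 Ighv UMIs were counted, at a median of 12 UMIs per cell. Per 100 UMIs of heavy constant genes, WT plasma cells had 0.542 ± 0.063 Ighv UMIs (SD, n = 4), R594C/+ cells 0.597 ± 0.041 (n = 4) and R594C/R594C cells 0.599 ± 0.011 (n = 2), with WT 2 lowest at 0.454 and R594C/+ 2 highest at 0.638. The ratio did not follow the number of R594C alleles beyond the spread between replicates (two-sided exact permutation p = 0.153). A dominant gene was called where 1 Ighv gene had at least 5 UMIs and over 50% of the cell's Ighv UMIs, which gave a call in 641 plasma cells (78.5%), 34 to 103 per replicate. In 69.6% of them every Ighv UMI came from the called gene. The files hold no junction sequences, so cells alike in V gene, light chain V gene and isotype may be, but need not be, relatives, and near-identical V genes can share reads. Of the called cells, 5 had a barcode that also occurred in another capture.

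Plasma cells drew on many genes, and a few took large shares. A dominant gene was found among 74 of the 183 symbols, of which 18 appeared in 1 replicate alone and 26 in at least 5 replicates. Ighv1-53 and Ighv1-26 had cells in all 10 replicates. Averaged over replicates, Ighv1-53 held 12.5% of called plasma cells, Ighv1-78 held 12.1% and Ighv1-26 held 5.26%. They were followed by Ighv1-9 (4.35%), Ighv6-3 (4.08%, or 2.21% without R594C/R594C 1), Ighv1-75 (3.78%), Ighv1-55 (3.67%), Ighv9-3 (2.90%), Ighv2-3 (2.89%) and Ighv1-64 (2.51%). These genes lie across the locus: Ighv2-3 lies 181.4 kb from the J segment Ighj1, Ighv6-3 lies 961.9 kb from it and Ighv1-78 lies 2439 kb from it, and the median called plasma cell used a gene 1516 kb away. The RefSeq pseudogenes gave 1.24% of the Ighv UMIs of plasma cells and 4 called cells, all of Ighv7-3.

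**Figure D1:**
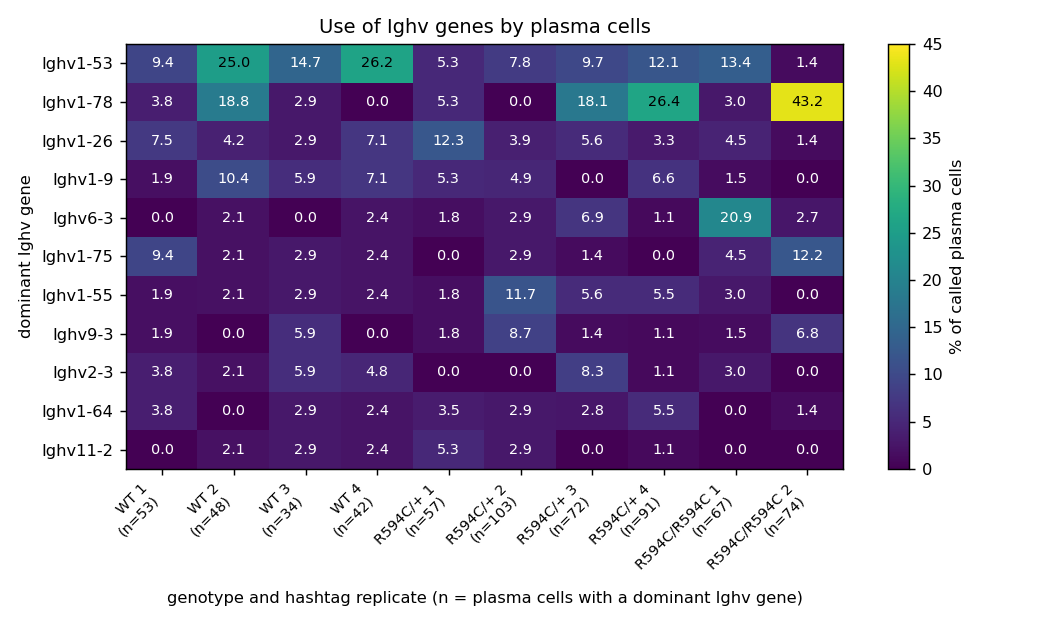
Share of called plasma cells (%, color and printed value) that used each of the 10 most used Ighv genes and Ighv11-2, in each of the 10 replicates; n is the number of called cells. Ighv1-78 ranges from 0% to 43.2% and Ighv1-53 from 1.35% to 26.2% between replicates.

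Ighv1-78 (chromosome 12, 115868773 to 115869066, GRCm38.p6) had the widest range between replicates of the genes plotted. It made up 32 of the 74 called cells of R594C/R594C 2 (43.2%), 24 of 91 of R594C/+ 4 (26.4%), 9 of 48 of WT 2 (18.8%) and 13 of 72 of R594C/+ 3 (18.1%). In the other 6 replicates it had between 0 and 3 cells, and WT 4 and R594C/+ 2 had none. All 4 replicates rich in Ighv1-78 were high in Xist, and the 4 low in Xist had 0 to 2 such cells, but R594C/+ 1 and 2, also high in Xist, had 3 and 0; the part of this split was not tested. Genotype means were 6.37% ± 8.4 for WT, 12.4% ± 12 for R594C/+ and 23.1% ± 28 for R594C/R594C, so the genotypes overlapped. In summed UMIs of plasma cells its log2 fold was 1.63 ± 1.72 (SE) for R594C/R594C minus WT (edgeR adjusted p = 0.90).

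The Ighv1-78 cells of different replicates carried different partners. In R594C/R594C 2 all 32 were IgG3, and Igkv4-61 was the called light chain V gene in 28 of the 30 with a call; at least 3 Igkv4-61 UMIs were found in all 32, with a median of 16.5. In R594C/+ 4, 17 of the 24 were IgG3 and 23 had Igkv4-61. In R594C/+ 3, 12 of 13 had Igkv14-111, and their isotypes were IgG2c (6 cells), IgM (3), IgA (3) and IgG2b (1). In WT 2 all 9 used the lambda gene Iglv1, and 8 were IgA. At least 3 Igkv4-61 UMIs were found in 1 of the 42 other called plasma cells of R594C/R594C 2 and in 0 of the 67 of R594C/+ 4.

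The heavy and light pair Ighv1-78 with Igkv4-61 was seen in 51 cells, all from 2 replicates of different genotypes and captures, R594C/+ 4 and R594C/R594C 2. No barcode was shared between the Ighv1-78 cells of those replicates, and leaving out cells with a barcode found in another capture left the shares at 26.7% and 43.2%. Ighv1-78 cells made up 17 of the 20 IgG3 cells of R594C/+ 4 and 32 of the 33 of R594C/R594C 2. IgG3 cells numbered 0 to 4 in each of the other 8 replicates. Jchain, which the gate used, stood at medians of 169 and 275 UMIs in the Ighv1-78 cells of these replicates and at 638 and 813.5 UMIs in their other called cells. Most of the former were IgG3, so gene and isotype cannot be told apart here. Elsewhere the Ighv1-78 median was also lower in R594C/+ 3 (13 cells, 259 against 605 UMIs), and in WT 1 and WT 3 (2 cells and 1 cell). It was higher in WT 2 (9 cells, 927 against 421 UMIs), and in R594C/+ 1 and R594C/R594C 1 (3 and 2 cells). In R594C/+ 4 and R594C/R594C 2 a single Ighv1-78 cell each lay in the cycling cluster, against 4 and 2 of the other called cells. The partners were examined after the shares had been seen and are given without a test.

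**Figure D2:**
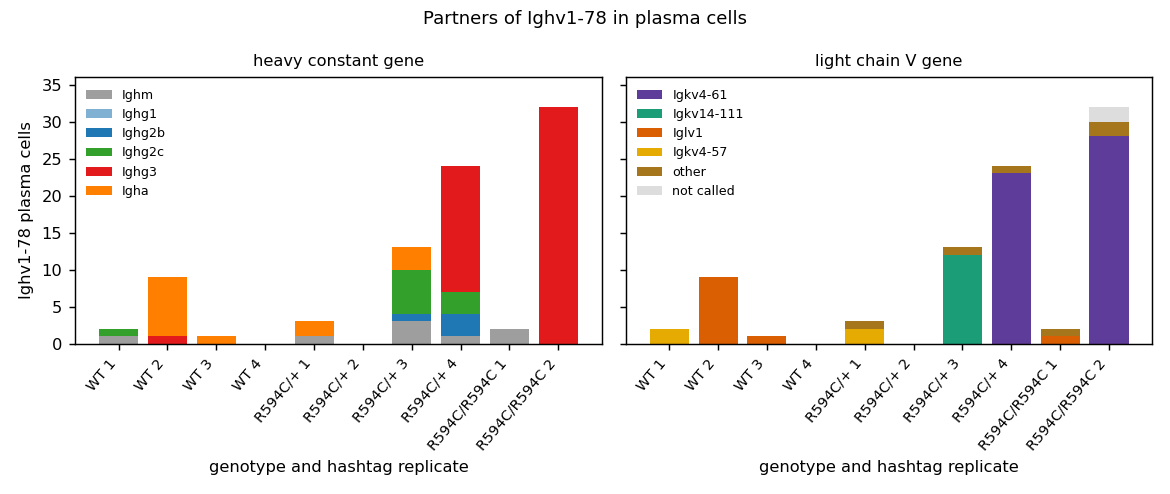
Number of Ighv1-78 plasma cells in each replicate, split by heavy constant gene (left) and by called light chain V gene (right). The 32 cells of R594C/R594C 2 are all IgG3 and the 23 purple cells of R594C/+ 4 share Igkv4-61 with 28 of them, while WT 2 shows IgA cells with Iglv1.

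Ighv1-53 (chromosome 12, 115158445 to 115158835) was, by contrast, spread over replicates and mostly IgM. It held 5 of 53, 12 of 48, 5 of 34 and 11 of 42 called cells in WT 1 to 4 (9.43% to 26.2%), then 5.26%, 7.77%, 9.72% and 12.1% in R594C/+ 1 to 4, and 13.4% and 1.35% in R594C/R594C 1 and 2. The 3 highest replicates were WT and the lowest was R594C/R594C 2, with 1 cell, but WT 1 lay below R594C/+ 3 and 4, so the groups overlapped. Its log2 fold in summed UMIs was -0.81 ± 0.75 for R594C/R594C minus WT and -0.71 ± 0.60 for R594C/+ minus WT (edgeR adjusted p = 0.88 and 0.85). Of its 72 cells 60 were IgM, and 38 of the 71 with a light chain call used Igkv3-4, in 9 of the 10 replicates. Igkv3-4 was common as a whole, in 64 of the 628 cells with a light chain call (10.2%).

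Some other genes were found mostly with 1 light chain. Igkv5-39 was the most used light chain V gene, in 102 of the 628 cells (16.2%) and with 33 Ighv genes. Ighv1-75 was found with Igkv5-39 in 23 of 24 cells, over 8 replicates, and Ighv9-3 with Igkv5-39 in 17 of 21, over 7 replicates. All 10 cells of Ighv11-2, a V gene of B1 cells known to pair with Igkv14-126 in antibodies to phosphatidylcholine, were IgM with Igkv14-126, and they came from 6 replicates. Of 317 pairs of heavy and light V genes, 267 were seen in 1 replicate alone. Those of Ighv1-53 with Igkv3-4, Ighv1-75 with Igkv5-39, Ighv9-3 with Igkv5-39 and Ighv11-2 with Igkv14-126 were the 4 seen in 5 or more replicates.

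Another set of alike cells stood in R594C/R594C 1. Ighv6-3 (chromosome 12, 114391712 to 114392010) made up 14 of its 67 called cells (20.9%), and all 14 were IgM with Igkv3-2. Elsewhere Ighv6-3 held 0% to 6.94% of called cells and no cell paired it with Igkv3-2. In summed UMIs its log2 fold was 3.07 ± 1.39 for R594C/R594C minus WT (edgeR adjusted p = 0.67). R594C/R594C 2 also held 9 IgM cells of Ighv1-75 with Igkv5-39, 12.2% of its called cells. Counting cells alike in V gene, light chain V gene, isotype and replicate, 263 of the 628 cells with a light chain call (41.9%) had at least 1 match, from 22.6% in WT 1 to 65.3% in R594C/R594C 2. A match is more likely where more cells were read, from 32 in WT 3 to 100 in R594C/+ 2, and the share was not adjusted for this.

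How far V genes were shared was measured as the chance that 2 called cells of a replicate use the same gene. It was 2.98%, 10.8%, 3.57% and 7.78% in WT 1 to 4, then 3.26%, 3.56%, 5.67% and 9.28% in R594C/+ 1 to 4, and 6.74% and 20.3% in R594C/R594C 1 and 2. R594C/R594C 2 stood above all others and R594C/R594C 1 lay within the WT range. The means were 6.28% ± 3.7, 5.44% ± 2.8 and 13.5% ± 9.6, and the value did not follow the number of alleles beyond the spread between replicates (exact permutation p = 0.202, correlation 0.44). That correlation changed sign to -0.032 without R594C/R594C 2, which leaves 1 replicate with 2 alleles. It changed sign to -0.11 without Ighv1-78 cells (exact permutation p = 0.777). The smallest p this design allows is 0.000317, over 3150 assignments.

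Within IgM cells the chance ranged from 2.56% in WT 1 to 14.1% in WT 2 (exact permutation p = 0.905 for the number of alleles). Within switched cells it ranged from 0% in WT 3 and R594C/R594C 1, which had 8 and 7 such cells, to 48.0% in R594C/R594C 2 (exact permutation p = 0.308). Cells of 2 different replicates shared the gene with a median chance of 3.43% over the 45 pairs, 3.66% for 13 pairs of 1 genotype and 3.41% for 32 pairs of different genotypes. The highest of these, 12.1%, was between R594C/+ 4 and R594C/R594C 2, both rich in Ighv1-78.

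**Figure D3:**
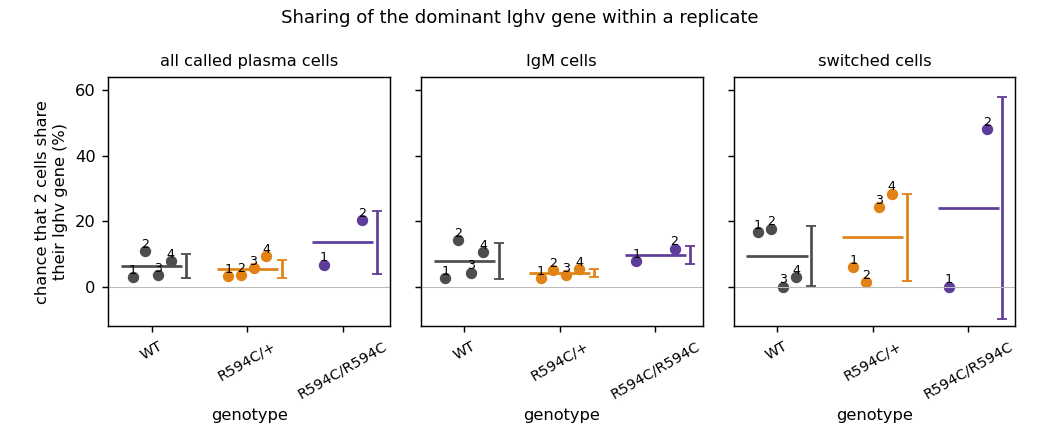
Chance (%) that 2 called plasma cells of a replicate share their dominant Ighv gene, for all, IgM and switched cells; numbered points are replicates, lines are genotype means and bars are SD. R594C/R594C 2 stands highest among all cells (20.3%) and switched cells (48.0%), and WT 2 among IgM cells (14.1%).

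Gene by gene, edgeR called no Ighv gene between genotypes in plasma cells. UMIs were summed per replicate and tested with edgeR's quasi-likelihood test over all genes; 53 Ighv genes of 7614 genes passed the filter on low counts. Of all genes 0.118% were called for R594C/R594C minus WT, 0.236% for R594C/+ minus WT and 0.302% for R594C/R594C minus R594C/+, at an adjusted p of 0.05 or less. Among the 53 Ighv genes edgeR called 0 in each, and 2, 7 and 2 had an unadjusted p under 0.05. The median log2 fold of the 53 was 0.00, 0.46 and -1.18, beside 0.00, 0.00 and 0.01 over all genes. In simulated counts at these library sizes 33% of genes changed 2-fold and 86% of those changed 4-fold were recovered for R594C/R594C minus WT. The changed genes were drawn at random from all tested genes, each with its own spread. These rates thus do not tell how often a changed Ighv gene would be recovered.

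Single replicates decided some of these counts. Leaving out R594C/R594C 1 or 2 leaves that genotype 1 replicate, so calls in its own comparisons are not counted for those fits. R594C/R594C minus WT gave 0 calls without any WT or R594C/+ replicate. R594C/R594C minus R594C/+ gave 1 call without each of WT 1, WT 3 and R594C/+ 1. R594C/+ minus WT gave 1 without each of WT 1, WT 3, R594C/+ 1, R594C/R594C 1 and R594C/R594C 2.

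DESeq2 called 0, 2 and 1 of the 53 in the order above, and these genes were named after their values were seen. Ighv8-8 and Ighv5-17 were called for R594C/+ minus WT (DESeq2 adjusted p = 0.046 and 0.047, edgeR adjusted p = 0.36 and 0.59). For Ighv8-8 the edgeR adjusted p of that comparison was 3.5e-12 without the filter on low counts, 3.2e-05 without R594C/R594C 1 and 0.00014 without R594C/R594C 2. For R594C/R594C minus WT it was 0.54, and 2.3e-05 without the filter. Without R594C/R594C 1 the log2 fold of that comparison was 7.02, with R594C/R594C 2 the only replicate of its genotype. Ighv8-8 had 16, 19, 16 and 18 UMIs in plasma cells of R594C/+ 1 to 4, 0 in all 4 WT replicates and in R594C/R594C 1, and 18 in R594C/R594C 2. WT and R594C/+ thus did not overlap for Ighv8-8, but its UMIs came from few cells, with 1 or 2 called cells in each R594C/+ replicate. The UMI counts of single genes given here are not scaled. Plasma cells of R594C/+ replicates gave a mean of 1682 ± 435 Ighv UMIs in all, against 886 ± 116 in WT (SD). Ighv5-17 had 47, 101, 4 and 15 UMIs in R594C/+ 1 to 4, 11 in R594C/R594C 1, and 0 in R594C/R594C 2 and all 4 WT replicates. Ighv1-64 was called for R594C/R594C minus R594C/+ (log2 fold -3.49, DESeq2 adjusted p = 0.044, edgeR adjusted p = 0.33), at 46 to 108 UMIs in R594C/+ against 1 and 12 in R594C/R594C, while WT ranged from 4 to 33.

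By family, the Ighv1 family, which has the most genes, held most plasma cells of every replicate except R594C/R594C 1 (46.3%), up to 79.2% in WT 2. Its means were 69.4% ± 6.7 for WT, 65.5% ± 9.3 for R594C/+ and 59.0% ± 18 for R594C/R594C. Of the 9 families with at least 10 called cells, 0 followed the number of alleles after Benjamini-Hochberg adjustment (two-sided exact permutation tests), and 1 had an unadjusted p under 0.05. This was Ighv6, at 3.77%, 2.08%, 0% and 2.38% in WT 1 to 4, at 3.51%, 4.85%, 8.33% and 3.30% in R594C/+ 1 to 4, and at 25.4% and 4.05% in R594C/R594C 1 and 2 (exact permutation p = 0.0156, adjusted p = 0.14). R594C/R594C 1 stood apart, and 14 of its 17 Ighv6 cells were the alike Ighv6-3 cells described above.

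The count of families changed with the cells used. Leaving out R594C/R594C 1 or 2 leaves 1 replicate with 2 alleles, so no p is given for those tests. R594C/R594C 2 alone held 4.05% Ighv8 cells, against 0% to 2.91% in WT and R594C/+ replicates. R594C/R594C 1 alone held 25.4% Ighv6 cells, against 0% to 8.33%. With Ighv1-78 cells left out, a choice made after the data were seen, 2 families were called. Ighv6 then held means of 2.22%, 5.80% and 16.6% for WT, R594C/+ and R594C/R594C, and Ighv1 held 67.6%, 61.0% and 47.3% (both adjusted exact permutation p = 0.0329). With alike cells counted once in a replicate, 0 families were called and the lowest adjusted exact permutation p was 0.0652.

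Switched and IgM plasma cells were compared next. Of the called cells 409 were IgM, 64 IgG2b, 61 IgG3, 60 IgG2c, 34 IgA and 13 IgG1, and the switched share ran from 10.4% in R594C/R594C 1 to 62.2% in R594C/R594C 2. In the 8 replicates with at least 10 cells of each kind, Ighv1 genes held 77.6% ± 12 of switched and 60.8% ± 7.3 of IgM cells (SD, n = 8), and were higher in switched cells in 8 of 8. The difference of 16.7 percentage points had the smallest p that 8 replicates allow (two-sided exact sign-flip permutation p = 0.00781). After adjustment over 8 families no family passed 0.05 (adjusted p = 0.0625, exact permutation test). That is the lowest adjusted p that 1 family alone can reach here, so the adjusted test could not have called a single family.

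Ighv6 went the other way, at 0.952% ± 1.8 of switched and 6.16% ± 3.7 of IgM cells, lower in 7 of 8 replicates (exact permutation p = 0.0312, adjusted p = 0.125). Without Ighv1-78 cells the Ighv1 shares were 66.2% ± 20 of switched and 60.2% ± 7.3 of IgM cells (exact permutation p = 0.422), a difference of 6.02 percentage points. WT 3 and R594C/R594C 1 had under 10 switched cells and were not in this test. Under the stricter gate (10 Xbp1 and 50 Jchain UMIs) no family had an unadjusted p under 0.05; that gate removes cells low in Jchain.

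**Figure D4:**
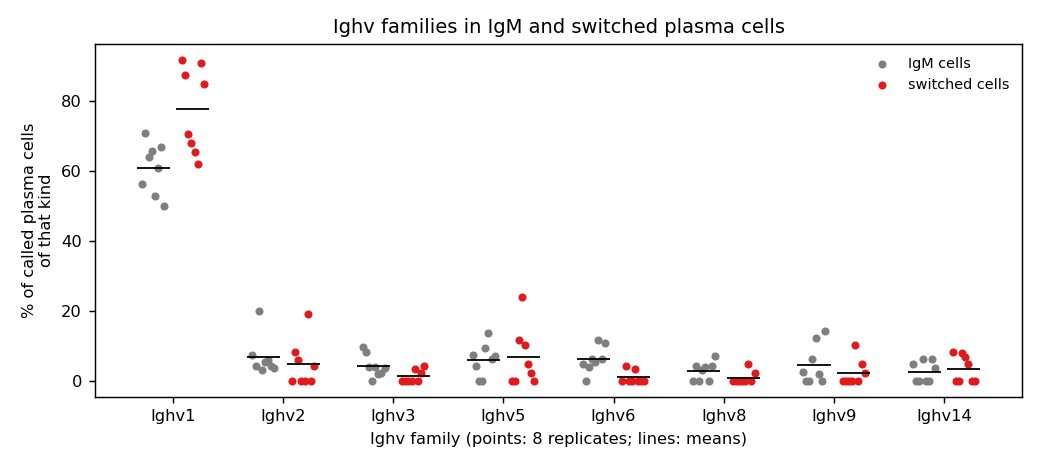
Share of called IgM (grey) and switched (red) plasma cells (%) that used each Ighv family, in the 8 replicates with at least 10 cells of each kind; points are replicates and lines are means. Ighv1 is higher in switched cells in 8 of 8 replicates (means 77.6% and 60.8%).

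B cells before the plasma stage gave little signal per cell. Their 4173 Ighv UMIs came to 49.4 to 62.6 CPM over replicates, against 2.29 to 6.87 CPM in T-like cells. A dominant gene (at least 2 UMIs and over 50% of the cell's Ighv UMIs) was called in 403 B cells (1.77%) and in 6 T-like cells (0.0455%), at median depths of 2793 and 3458 UMIs. The called share of B cells was 2.31% to 2.59% in WT and 1.32% to 2.16% in R594C/+ replicates. It was 1.40% and 1.48% in R594C/R594C 1 and 2, so calls were more frequent in WT, and the cause was not tested. Calls in B cells fell on 80 genes with no large share. The highest mean shares were those of Ighv3-6 (4.59%), Ighv6-3 (4.27%), Ighv1-82 (3.99%), Ighv1-26 (3.91%), Ighv1-9 (3.87%), Ighv9-3 (3.86%), Ighv1-64 (3.799%), Ighv5-4 (3.48%), Ighv1-81 (3.44%) and Ighv1-22 (3.41%). Pseudogenes gave 2.59% of the Ighv UMIs.

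Of the 10 genes most used in plasma cells, 5 (Ighv1-26, Ighv1-9, Ighv6-3, Ighv9-3 and Ighv1-64) were also among the 10 most used in B cells, while Ighv1-53 and Ighv1-78 were not. Ighv1-26 held the highest mean share of B cell Ighv UMIs among the named genes (4.14%). Ighv1-78 held a mean of 2.07% of B cell Ighv UMIs and Ighv1-53 held 2.18%. The share of plasma cells was above the share of B cell UMIs in 8 of 10 replicates for Ighv1-78 and in 10 of 10 for Ighv1-53, but in 1 of 10 for Ighv1-64. Ighv1-22, dominant in 16 B cells, was dominant in 1 plasma cell. These set a share of cells beside a share of UMIs and were not tested.

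By isotype, B cells could not be split. With at least 2 constant UMIs and over 50% from 1 gene, 511 of 21649 B cells (2.36%) read as switched, against 370 of 7395 T-like cells (5.003%). Over all cells of each kind, called or not, the shares were 2.25% and 2.81%. By either count the B cell share did not exceed that of cells that make no heavy chain, so no Ighv use is given for switched B cells. Of the B cells with a dominant gene, 386 read as IgM and 7 as switched, each of the 7 with a different Ighv gene.

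Between genotypes, 0 of the 15 Ighv genes that passed the filter in B cells were called, where 0.174% of 12043 genes were called for R594C/R594C minus WT, 0.365% for R594C/+ minus WT and 1.14% for R594C/R594C minus R594C/+ (edgeR). Unadjusted p was under 0.05 for 2, 0 and 0 of the 15, and DESeq2 called 0 in each. The 2 were Ighv1-53, with a log2 fold of -1.07 ± 0.48 for R594C/R594C minus WT, and Ighv3-6, with -0.87 ± 0.36 (edgeR adjusted p = 0.78 and 0.72). None of 8 families followed the number of alleles in B cells (lowest adjusted exact permutation p = 0.503), and none had an unadjusted p under 0.05. Ighv5, the most used family after Ighv1, stood at 8.87% ± 3.2, 17.4% ± 8.0 and 13.1% ± 6.7 of called B cells for WT, R594C/+ and R594C/R594C.

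Between B cell classes, Ighv11-2 and Ighv12-3 were higher in B1-like than in follicular-like cells, against a lower level of Ighv UMIs as a whole. The classes were clusters made without antigen receptor V, D and J segments and named from marker genes. Follicular-like cells (the recirculating B cells) numbered 14013 and marginal zone-like cells (which face the blood) 3006. B1-like cells (a self-renewing lineage with a restricted repertoire) numbered 1829. Their cluster was raised for 5 of 11 B1 markers, and also for 3 marginal zone markers. Ighv UMIs came to 63.2 to 81.6 CPM over replicates in follicular-like cells, 22.0 to 41.3 CPM in marginal zone-like and 25.2 to 43.8 CPM in B1-like cells, so both latter classes were low in Ighv UMIs as a whole. Their cells had more UMIs in all, with medians of 4797 and 4700 against 2484 in follicular-like cells; the part of depth in the difference was not tested. No Ighv gene passed the filter on low counts in either comparison, in which 54.7% of all genes were called for B1-like and 50.4% for marginal zone-like cells. Calls on Ighv genes thus rest on the fit without that filter, in which 25.7% and 22.0% of genes were called. The Ighv calls, 20 of 110 and 24 of 109, were near or below these shares, and all but 2 were on the low side, like the class as a whole.

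In B1-like cells 2 Ighv genes were higher and 18 lower than in follicular-like cells, of 110 tested. The higher pair was Ighv11-2 and Ighv12-3, the V genes known for phosphatidylcholine-binding B1 antibodies. Ighv11-2 gave 26 of the 334 Ighv UMIs of B1-like cells (7.78%) and 8 of 2578 in follicular-like cells (0.310%), with a log2 fold of 3.22 ± 0.58 (SE, edgeR adjusted p = 2.7e-07). It had B1-like UMIs in 7 of 10 replicates, at 12.9% and 5.71% in WT 1 and 2, 5.13% to 10.8% in R594C/+ 1, 3 and 4, and 13.9% and 7.89% in R594C/R594C 1 and 2. In those 7 the share was above that of follicular-like cells.

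Ighv12-3 gave 17 UMIs (5.09%) in B1-like and 8 (0.310%) in follicular-like cells, a log2 fold of 2.77 ± 0.67 (edgeR adjusted p = 0.00021), and was above the follicular-like share in 8 of 10 replicates. T-like cells held 2 UMIs of each of these genes, 0.0404 CPM, against 2.64 and 1.73 CPM in B1-like cells. Mean B1-like shares for WT, R594C/+ and R594C/R594C were 4.65%, 6.62% and 10.9% for Ighv11-2 and 7.02%, 2.84% and 9.58% for Ighv12-3, resting on 26 and 17 UMIs in all. Among plasma cells Ighv11-2 was found in WT and R594C/+ replicates, while 0 of the 141 called cells of R594C/R594C used it, which allows a share of up to 2.13% and covers counting error only. Ighv12-3 had 1 plasma cell, an IgG2c cell with Igkv10-96.

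The 5 lowest of the 18 in B1-like cells were Ighv1-85, Ighv10-3, Ighv1-80, Ighv1-76 and Ighv1-75. Ighv1-81 (log2 fold -2.91 ± 0.62) and Ighv1-82 (-2.70 ± 0.57) were among the 18, with edgeR adjusted p of 2.4e-05 and 1.7e-05. Ighv1-78 did not pass (0.55 ± 0.45, edgeR adjusted p = 0.49). Of its 20 B1-like UMIs 6 came from R594C/+ 3, 5 from R594C/+ 4 and 6 from R594C/R594C 2, the replicates with 13 to 32 Ighv1-78 plasma cells. WT 2, with 9 such plasma cells, had 0 B1-like UMIs of the gene, and R594C/+ 2, with none, had 2. In T-like cells Ighv1-78 gave 17 of 192 Ighv UMIs, and the part of free RNA in the B1-like value was not tested.

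In marginal zone-like cells 24 Ighv genes were lower and 0 higher than in follicular-like cells, of 109 tested, where the whole class is low in Ighv UMIs. The median log2 fold of the 109 was -1.18, beside -0.08 over all genes; in B1-like cells these medians were -1.22 and -0.13. Ighv3-6 (-1.35 ± 0.42), Ighv1-82 (-1.62 ± 0.39) and Ighv1-81 (-2.14 ± 0.46) were called (edgeR adjusted p = 0.0070, 0.00023 and 3.6e-05), while Ighv1-53 (-0.43 ± 0.46) and Ighv1-55 (0.34 ± 0.45) were not (edgeR adjusted p = 0.66 and 0.73). The 5 lowest of the 24 were Ighv1-5, Ighv1-72, Ighv1-58, Ighv9-4 and Ighv14-4. Ighv12-3 and Ighv1-72 had 0 of the 418 Ighv UMIs of marginal zone-like cells, which allows a share of up to 0.718% each, against follicular-like shares of 0.310% and 0.892%.

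The edge of the marginal zone-like class moved with the random seed of the clustering, an alternative added after the data were seen. Under another seed the class held 2062 cells and 18 Ighv genes were called, 14 of them among the 24 (58.3% of the 24 and 77.8% of the 18); Ighv1-72, Ighv9-4 and Ighv14-4 were not called. The B1-like class held 1834 cells under that seed, and its 19 called genes were all among the 20, with Ighv10-3 lost.

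**Figure D5:**
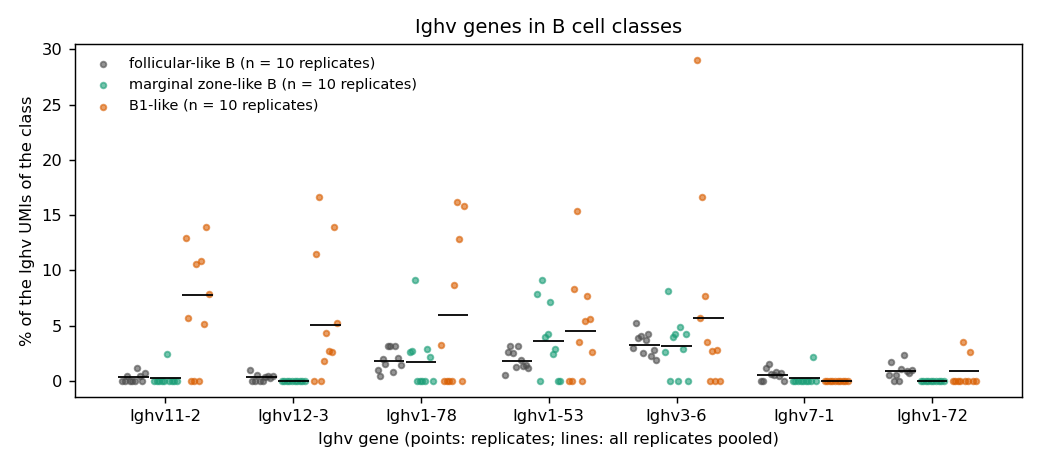
Share (%) of the Ighv UMIs of a B cell class that came from each of 7 Ighv genes; points are the 10 replicates and lines the value over all replicates. Ighv11-2 (7.78% against 0.310%) and Ighv12-3 (5.09% against 0.310%) are higher in B1-like than in follicular-like cells.

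Ighv7-1, known from antibodies to phosphorylcholine, and Ighv1-72, known from the response to the hapten NP, were rare. Ighv7-1 was dominant in 0 plasma cells, is a pseudogene in the RefSeq table, and gave 14 follicular-like and 0 B1-like UMIs. Ighv1-72 was dominant in 2 plasma cells and gave 23 follicular-like UMIs.

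A list of 28 antigen receptor genes (constant genes, light chains, the Cd79 signalling pair, recombination and switching enzymes, and factors of heavy chain transcription) was read in the same fits. In plasma cells 0 of the 21 tested were called by edgeR in any genotype comparison, beside 0.118% to 0.302% of all genes. In B cells 1 of 22 was called for R594C/R594C minus WT (Ighg2c, lower), 1 for R594C/+ minus WT (Ighg2c, higher) and 2 for R594C/R594C minus R594C/+ (Ighg2c and Ighg2b, lower). Of all genes 0.174%, 0.365% and 1.14% were called, in the same order. The log2 fold of Ighg2c was -2.50 ± 0.10, 0.72 ± 0.07 and -3.22 ± 0.10 in that order; T-like cells also held switched constant UMIs, and the part of free RNA in these values was not tested. In B1-like against follicular-like cells 12 of 20 were higher, and 4 lower, Ighd (-2.20 ± 0.11) and Vpreb3 (-2.77 ± 0.13) among the lower. Among the higher were Ighm (0.65 ± 0.08) and switched constant genes. These were Ighg3 (2.18 ± 0.41), Ighg2b (1.89 ± 0.15), Igha (1.38 ± 0.26), Ighg1 (1.165 ± 0.424) and Ighg2c (0.71 ± 0.12). The part of free RNA in these class values was not tested either. Ighd was a marker used to name follicular-like clusters, and Vpreb3 was one used for transitional cells. The clustering left out receptor segments but not these genes, so such class differences are not independent of how the classes were made. In marginal zone-like cells 5 were higher and 11 lower. Of all genes, in either direction, 54.7% were called in the B1-like comparison and 50.4% in the marginal zone-like one.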

How the data were processed

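The authors deposited raw UMI counts of genes, antibodies and hashtags by barcode. Per the file headers these came from Cell Ranger 5.0.0; the submitters' processing notes also name STAR, Seurat 3.1.4 and mm10. Positions are those of GRCm38.p6. The captures held 16027, 17980 and 17444 barcodes (WT, R594C/+, R594C/R594C) with 74546390, 87953814 and 74538447 RNA UMIs, and no barcode held under 500. Between 147 and 168 barcodes per capture also occurred in another. Barcodes with under 200 genes or over 10% mitochondrial UMIs were left out. HTODemux of Seurat 5.3.0 (quantile 0.99) assigned hashtags, giving 12759, 15344 and 15502 single cells, of which 3.39%, 4.16% and 9.99% were removed as doublets within a hashtag by a score against simulated doublets. Cells were clustered (2000 genes without receptor segments, 30 components, Leiden resolution 1.5) with leidenalg and scikit-learn in Python 3.11.15. A marker counted for a cluster at 2-fold or more in at least 10% of cells, and classes were named from how many markers counted (at least 5 for T, plasma and germinal centre cells, 4 for B cell classes and 3 for transitional cells), a rule chosen with the data seen.

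Counts were summed per replicate and tested with edgeR 4.0.16 (TMM, filterByExpr, robust quasi-likelihood, Benjamini-Hochberg), in 1 fit over all 10 replicates for genotypes and with the replicate as a block between classes of the same replicates; DESeq2 1.42.0 was an alternative. The tests were tried on simulated counts first. Exact permutation tests were two-sided. A light chain V gene was called from at least 5 UMIs and over 50% of the V UMIs of the type (kappa or lambda) with more constant UMIs, since Iglv1 UMIs were widespread. Named genes were Ighv11-2, Ighv12-3, Ighv7-1, Ighv1-72, the 10 most used in plasma cells and in B cells, and at most 5 called genes in each direction; genes named for their partners were chosen after their values were seen. Members and lists were chosen with earlier results of these data known. No Ighv sequences are printed.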

Additional observations from a re-analysis of the deposited data

Results flagged for a closer look

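Within the groups of 4 replicates, 70 sets of values were screened for a replicate far from the other 3, and 6 had one; chance gives about 1 in 20 of such sets. Ighv1-75 held 9.43% of called plasma cells in WT 1 against 2.08% to 2.94% in the other WT replicates. Ighv2-3 held 8.33% in R594C/+ 3 against 0% to 1.10% in the other R594C/+ replicates, and Ighv9-3 held 8.74% in R594C/+ 2 against 1.10% to 1.75%. The Ighv8 family held 2.08% of called plasma cells in WT 2, which is 1 cell, and none in the other WT replicates. The Ighv9 family held 0% of called B cells in WT 1 against 6.67% to 7.69%. Ighv UMIs in B cells stood at 60.3 CPM in R594C/+ 3 against 49.4 to 50.7 CPM in the other R594C/+ replicates.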

How the results depend on the processing

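In plasma cells the count of Ighv genes called between genotypes was 0. Leaving out 1 WT or R594C/+ replicate at a time gave 0 for R594C/R594C minus WT. It gave 0 to 1 for R594C/+ minus WT and 0 to 1 for R594C/R594C minus R594C/+. Leaving out an R594C/R594C replicate leaves that genotype 1 replicate, so the counts of its comparisons are not given. Without the filter on low counts the counts were 3, 2 and 2, and with the replicate block 1, 5 and 2; the labels share only a number between genotypes (same-number correlations of deviations of -0.038 to 0.042 in plasma cells), so the block is no pairing. DESeq2 called 2 for R594C/+ minus WT and 1 for R594C/R594C minus R594C/+. Without the filter 20 Ighv genes were called in B1-like and 24 in marginal zone-like cells, where the filter left none to test, and 19 and 18 with another clustering seed. The count of plasma cell families that followed the alleles was 0, and 2 without Ighv1-78 cells. Tests without R594C/R594C 1 or 2 leave 1 replicate with 2 alleles, and their counts are not given. The correlation of gene sharing with the alleles was 0.44, ran from -0.032 to 0.58 with a replicate left out, and was -0.47 with alike cells counted once and -0.11 without Ighv1-78 cells. Counting alike cells once, keeping doublets, another clustering seed and leaving out Ighv1-78 were chosen after seeing the data. The margin rule for hashtags, the stricter gate, higher minimums, dominance over 80% and doublets kept left each of the other counts within 1.5 times and reversed no correlation. For the B cell classes this was fixed in advance, since the filter left no Ighv gene to test under these settings. Nor can 1 family alone pass in the test of IgM against switched cells with 8 replicates. The mean shares of the 10 most used plasma cell genes moved by less than 1 SD in all 160 recomputations. Where 1 of 10 replicates was left out this outcome was fixed in advance, since 1 replicate cannot move the mean that far. Leaving out 1 replicate took the mean of Ighv1-78 from 12.1% to as low as 8.68%, and that of Ighv6-3 from 4.08% to 2.21%. The cause of each change was not tested. The comparison of Ighv11-2 B cells with other B cells was not run, since 3 such cells were called and no replicate had 5. Depth limits the rest: a median plasma cell gave 12 Ighv UMIs, and 34 called cells in WT 3 put 1 cell at 2.94%.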
